A study of Mus musculus with 4 samples.

Results

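The genes described are 10 genes of midbrain dopaminergic fate and trophic support: the transcription factors En1 and Pitx3, the dopamine genes Th and Slc18a2, the GDNF signalling genes Gdnf, Gfra1 and Ret, the neurotrophin gene Bdnf, and Dlk1 and Sncg, which are expressed in dopaminergic neurons. They were chosen by name, with earlier results of these data known. Every probe set annotated with 1 of these symbols was taken: 11 of the 12403 gene probe sets on the array, for 9 of the 10 genes, out of 8236 genes with a symbol of their own in all. For Slc18a2 no probe set was used here. The arrays were hybridised with RNA of 4 clonal lines of c17.2, a mouse neural stem cell line of cerebellar origin immortalised with myc, all grown under proliferating conditions. Clone 42 and clone 48 carried a stable Nurr1 transgene, and puroB and puroD are described as stable, puromycin-resistant control lines. The promoter of the transgene is not given in the labels. The matches, by proliferation rate, were clone 42 with puroB and clone 48 with puroD. Each line is 1 clone on 1 array, so that the transgene and other differences between clones cannot be told apart in a pair. The replicates are the 2 clones of each group.

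Midbrain dopaminergic neurons arise in the floor of the midbrain, where the homeobox factors En1, Lmx1b and Pitx3 and the nuclear receptor Nurr1 (gene Nr4a2) specify and maintain them. Nurr1 is needed there for the expression of Th, tyrosine hydroxylase, which makes the dopamine precursor, and of Slc18a2, the vesicular transporter that loads dopamine. GDNF, a secreted survival factor for these neurons, binds the co-receptor GFRa1 (Gfra1), and the complex activates the receptor tyrosine kinase RET. BDNF supports the same neurons through the kinase TrkB.

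Of these genes, En1 differed most evenly between the groups, with signals in the Nurr1-labelled clones more than 2-fold those of their matched controls in both pairs. Gdnf and Bdnf were higher in both pairs too, but mainly in clone 42. Gfra1 was lower in both Nurr1-labelled clones, and Th was above background in puroB and in no other clone. Of the 7 member probe sets bright enough to be tested, 0 passed a Benjamini-Hochberg adjusted p of 0.05 in limma, where 0.109% of all 6419 tested probe sets did, and 4 (En1, Gfra1, Gdnf and Bdnf) had an unadjusted p under 0.05, as did 474 (7.38%) of all those tested. Gfra1 is among the 4 and was bright enough only on the control arrays. Since the members had been chosen with earlier results of these data known, the shares beside them are a description and no test. The plot of member signals shows all values.

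**Figure D1:**
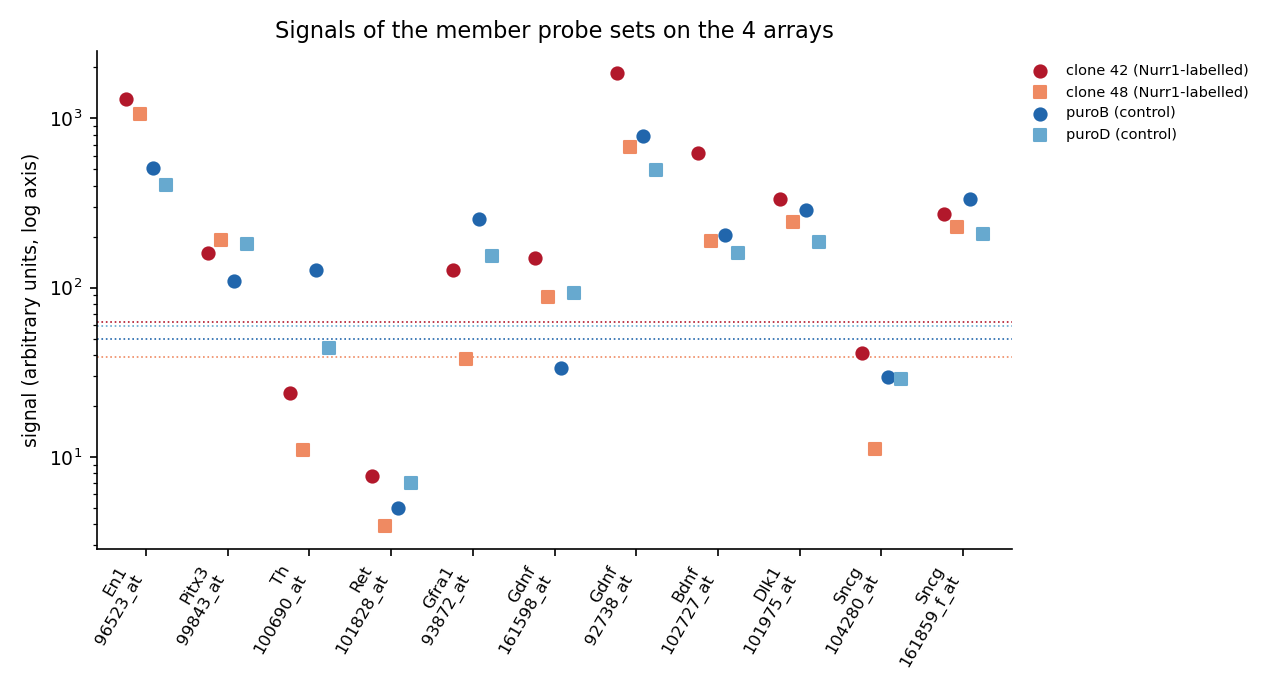
Signal of each member probe set (log axis, arbitrary units) in the Nurr1-labelled clones 42 and 48 and the control clones puroB and puroD, 1 array each; dotted lines give, in each clone's colour, the highest array control without spiked-in transcript. En1 signals in clones 42 and 48 (1295 and 1067) lie above those in puroB and puroD (508 and 403), and all 4 Ret signals lie under the dotted lines.

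Signals are MAS5 values in arbitrary units, each array having been brought to the same trimmed mean of 500, and differences are on the log2 scale after signals under a floor of 40.3 had been set to it. Background was read from 15 array controls whose transcripts had not been spiked in. Their highest signal was 62.6 (clone 42), 39.1 (clone 48), 49.8 (puroB) and 59.0 (puroD). Probe sets were tested where at least 2 arrays exceeded 145. Nr4a2 itself had signals of 320 (clone 42) and 206 (clone 48), against 485 (puroB) and 254 (puroD) (92248_at), so that the transgene was not seen as a higher signal. At 92249_g_at the signals were 188 (clone 42) and 113 (clone 48), against 372 (puroB) and 213 (puroD). The mean log2 differences were -0.45 ± 0.30 and -0.95 ± 0.34 (SE, n = 2 clones in each group; limma adjusted p = 0.871 and 0.453). Whether these probe sets detect the transgene is unknown here, and the lines are therefore called Nurr1-labelled. Of the neural stem cell markers, nestin (Nes) overlapped between the groups, with signals of 3171 and 3716 in clones 42 and 48 and 3323 and 3027 in puroB and puroD, while Fabp7, a lipid-binding protein of radial glia, was lower in the Nurr1-labelled clones, as given beside En1 below, and Hes5 stayed within the background of all 4 arrays. For actin, the signal at the 3' end over that at the 5' end, a sign of RNA integrity, was 1.68 and 2.41 in clones 42 and 48 and 1.51 and 2.0 in puroB and puroD; its part in the differences below was not tested.

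The promoter windows of En1 and Gfra1 are shown because their signals in the Nurr1-labelled and control clones did not overlap. Of all tested probe sets, 12.8% had both Nurr1-labelled clones above both control clones and 17.9% below. The Th window is shown because both Nurr1-labelled signals were below both control signals, although only puroB exceeded its background. The Gdnf window is shown because Gdnf encodes the ligand of GFRa1. Each runs from 250 bases before to 50 bases after an annotated transcription start in RefSeq (GRCm38.p6), 5′ to 3′ on the gene's own strand. Capitals mark matches to any of 5 motifs searched on both strands: the NBRE AAAGGTCA, to which Nurr1 binds as a monomer, its AGGTCA core, the cyclic AMP response element TGACGTCA, the CCAAT box and the TATA box TATAAA.
En1, chr1:120602237-120602536, plus strand: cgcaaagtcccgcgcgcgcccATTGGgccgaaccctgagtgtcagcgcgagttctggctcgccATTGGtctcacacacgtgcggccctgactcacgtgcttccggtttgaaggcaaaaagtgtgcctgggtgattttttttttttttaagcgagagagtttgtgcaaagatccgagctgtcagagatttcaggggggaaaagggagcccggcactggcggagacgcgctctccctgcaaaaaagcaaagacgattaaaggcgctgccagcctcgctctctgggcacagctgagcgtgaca
Gfra1, chr19:58455349-58455648, minus strand: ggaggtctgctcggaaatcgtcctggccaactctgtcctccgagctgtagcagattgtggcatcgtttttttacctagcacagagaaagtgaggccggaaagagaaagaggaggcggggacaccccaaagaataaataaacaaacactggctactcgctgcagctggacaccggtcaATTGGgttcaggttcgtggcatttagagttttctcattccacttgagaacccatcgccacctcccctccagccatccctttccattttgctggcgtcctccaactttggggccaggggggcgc
Th, chr7:142899946-142900245, minus strand: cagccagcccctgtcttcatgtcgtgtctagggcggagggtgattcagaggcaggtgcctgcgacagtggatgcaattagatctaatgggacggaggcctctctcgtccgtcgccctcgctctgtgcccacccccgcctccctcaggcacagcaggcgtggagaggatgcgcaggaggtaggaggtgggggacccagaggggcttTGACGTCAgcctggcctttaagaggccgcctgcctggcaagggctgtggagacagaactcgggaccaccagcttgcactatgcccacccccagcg
Gdnf, chr15:7809798-7810097, plus strand: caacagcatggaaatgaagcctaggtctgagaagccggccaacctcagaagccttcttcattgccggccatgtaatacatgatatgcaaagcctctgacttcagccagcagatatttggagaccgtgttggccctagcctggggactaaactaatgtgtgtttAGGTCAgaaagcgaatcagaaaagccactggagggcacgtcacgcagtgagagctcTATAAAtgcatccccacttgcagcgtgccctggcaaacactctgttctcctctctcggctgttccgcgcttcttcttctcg
No NBRE was found in any of the 16 windows of the 9 members in the table, and 1.51% of all 32851 windows held one. These letters are missing from these windows, which says nothing of more distant sequence. The AGGTCA core lies within the NBRE and was found in 1 window each of Gdnf (position -87 from the start) and Bdnf (-50), and in 16.3% of all windows. The Th window held the cyclic AMP response element at position -45, as did that of Slc18a2 at -4, against 1.79% of all windows. The En1 window held CCAAT boxes at -229 and -187, both on the opposite strand, and the Gfra1 window 1 at -73; 37.4% of all windows held one. A TATA box was found at -31 in the Gdnf window shown and in 13.6% of all windows. The other Gdnf window held a CCAAT box.

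En1, the engrailed homeobox factor that midbrain dopaminergic neurons need for their survival, gave signals of 1295 (clone 42) and 1067 (clone 48), against 508 (puroB) and 403 (puroD) (96523_at). Both Nurr1-labelled clones were above both control clones, with a gap wider than the distance between the clones of either group. The signal was 2.55-fold higher in clone 42 than in puroB and 2.65-fold higher in clone 48 than in puroD. On the log2 scale the pairs differed by 1.35 and 1.40, and the mean difference was 1.38 ± 0.29 (SE, n = 2 clones in each group; limma, adjusted p = 0.0853, unadjusted p = 0.000304), with a 95% interval of 0.76 to 2.0. Within the groups the clones differed less, by 0.28 for clone 42 minus clone 48 and by 0.33 for puroB minus puroD. En1 was the only 1 of the 7 tested member probe sets whose mean difference exceeded both within-group differences. The share of all tested probe sets for which this held is not given here. Among all 6419 tested probe sets it ranked 7 by the smaller of its 2 pair differences, and 21 by its p-value. Over all tested probe sets, 12.8% had both Nurr1-labelled clones above both control clones, and 0.327% were at least 2-fold higher in both pairs, as En1 was. Its adjusted p missed the threshold of 0.05, and was 0.0113 with scaling to the median and 0.00993 with a filter on all 4 arrays, but 0.66 without the matched pair in the fit and 0.903 without a filter.

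The engrailed paralog En2, which acts beside En1 in midbrain and cerebellum, did not show this pattern. Its signals were 99.9 (clone 42) and 61.3 (clone 48), against 148 (puroB) and 57.4 (puroD) (98338_at), and it was too dim to be tested. Clone 42 was lower than puroB, and clone 48 and puroD lay close together.

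Markers of other cell types differed between the groups beside En1. Of 4 tested neuron markers, 3 were higher in both pairs (Nefl, Nefm and Tubb3). Nefm was bright enough only on the Nurr1-labelled arrays, so its place among the tested markers partly follows from its difference. The summed signal of the 7 neuron markers with a probe set was 5459 to 6855 in Nurr1-labelled and 3300 to 3328 in control clones. Most of it came from Tubb3, which had 5683 (clone 42) and 4628 (clone 48), against 2701 in each control clone. The suffix of the Tubb3 probe set, 160462_f_at, marks probes that can match a family of similar sequences. Map2 of the same list, too dim to be tested, had 45.8 (clone 42) and 4.2 (clone 48), against 198 (puroB) and 120 (puroD), the opposite direction. The pairs of Stmn2 differed in opposite directions (log2 0.25 and -0.59), and the synaptic markers Snap25 and Syp lay under the controls not spiked in on all 4 arrays. Of 5 tested fibroblast and mesenchymal markers, 2 were higher and 1 lower in both pairs, with summed signals of 7538 to 11347 in Nurr1-labelled and 3878 to 4835 in control clones over 7 markers. The largest part in the Nurr1-labelled clones was Col3a1, with 5015 (clone 42) and 4006 (clone 48), against 1287 (puroB) and 1749 (puroD). The pairs of Col1a2 differed in opposite directions (log2 2.36 and -0.07). Of 4 tested neural stem and progenitor markers, 3 were lower in both pairs, with sums of 4895 to 4917 in Nurr1-labelled and 5970 to 6034 in control clones over 9 markers. Nes made up most of each of these sums, and the marker that differed most was Fabp7, with 564 (clone 42) and 157 (clone 48), against 1291 (puroB) and 1537 (puroD), a mean log2 difference of -2.24 ± 0.40 (SE, n = 2 clones in each group; limma adjusted p = 0.0503). Hes1 had a mean of -0.47 and Notch1 of -0.38. These single markers were named after their values had been seen. Markers of other lineages had lower sums in the Nurr1-labelled clones or sums that overlapped: 3404 to 4395 against 5179 to 5278 for 5 astrocyte markers (1 of 2 tested lower in both pairs), 132 to 303 against 367 to 415 for 3 oligodendrocyte markers (2 of 2), 546 to 821 against 803 to 836 for 6 microglial markers (2 of 3) and 3388 to 4144 against 4260 to 4562 for 4 endothelial markers (1 of 1). Gja1 made up most of each astrocyte sum, with 2701 (clone 42) and 2644 (clone 48), against 4283 (puroB) and 4530 (puroD). Its probe set, 100064_f_at, has the same suffix as that of Tubb3. The pairs of the astrocyte marker S100b differed in opposite directions (log2 1.12 and -0.30). So did those of Gfap (-1.08 and 1.72), which was too dim to be tested. The oligodendrocyte marker Pdgfra had 223 (clone 42) and 29.4 (clone 48), against 232 (puroB) and 212 (puroD), so that clone 42 lay between the controls. Twist1, the fibroblast marker lower in both pairs, and the oligodendrocyte marker Mbp were bright enough only on the control arrays. Their places among the tested markers partly follow from their differences. Over all tested probe sets, 21.7% were higher and 29.7% lower in both pairs. In all of these lists 0 markers passed the test. The part of these differences in the En1 result was not tested.

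**Figure D2:**
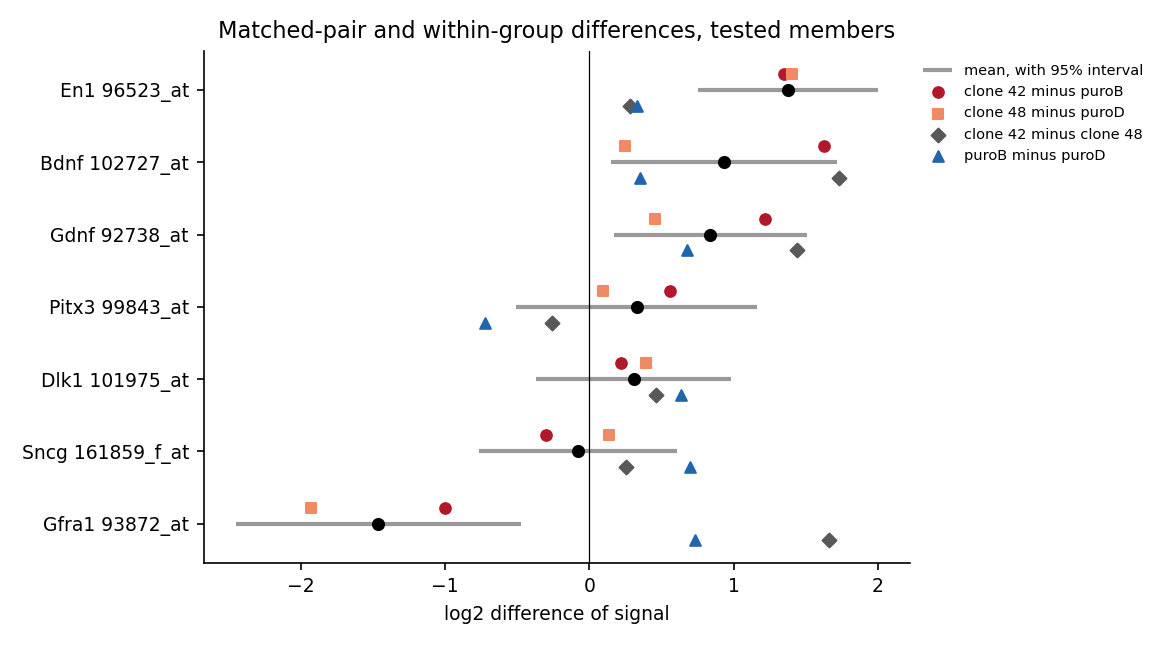
Log2 differences of signal for the 7 tested member probe sets: each matched pair (red circle and orange square), their mean with its 95% interval (black point and grey bar), and the differences within the Nurr1-labelled (diamond) and control clones (triangle). For En1 the pair differences of 1.35 and 1.40 lie apart from the within-group ones of 0.28 and 0.33, whereas for Bdnf and Gdnf the difference between clones 42 and 48 is larger than the mean.

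Pitx3, a homeobox factor that maintains Th expression in midbrain neurons, had signals of 161 (clone 42) and 192 (clone 48), against 109 (puroB) and 180 (puroD) (99843_at). The groups overlapped, and puroB was the low clone. The mean log2 difference was 0.33 ± 0.39 (SE, n = 2 clones in each group; limma adjusted p = 0.968), with a 95% interval of -0.51 to 1.16 that holds differences of more than 2-fold upwards. Without puroB it was -0.03, since clones 42 and 48 then stood against puroD alone. Here and below, values without a clone come from a fit that leaves out the matched pairs.

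Th gave signals of 23.8 (clone 42) and 11.0 (clone 48), against 126 (puroB) and 44.0 (puroD) (100690_at). Only the puroB signal exceeded the highest control not spiked in on its own array, so that Th transcript was not detectable at this sensitivity in the Nurr1-labelled clones or in puroD. Taken against the background limit of clone 42 (62.6), the Th signal of clone 42 was lower than that of puroB by at least 2.02-fold. For clone 48 and puroD both signals lay within the background, and no fold is given. Both Nurr1-labelled signals were below both control signals, but Th was too dim to be tested.

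Other genes of dopamine handling that mark the neuron were also dim. The dopamine transporter gene Slc6a3 had signals of 44.2 and 37.9 in clones 42 and 48 and 37.1 and 43.9 in puroB and puroD, all under the controls not spiked in. Ddc, the decarboxylase that follows Th, had 58.2 and 71.4 in clones 42 and 48 and 65.9 and 78.8 in puroB and puroD, and Gch1, the first enzyme of the cofactor of Th, 101 and 69.5 against 39.3 and 63.8. Of the list of dopamine synthesis, transport and breakdown, 14 of 20 genes had a probe set and 7 were tested. In each direction 0 passed, with 1 higher and 4 lower in both pairs and a median log2 difference of -0.24, against -0.04 over all tested probe sets, of which 21.7% were higher and 29.7% lower in both pairs. Qdpr, which recycles the cofactor of Th, had 0.27 and 0.35 in the pairs, and Pnmt, which makes adrenaline, -0.44 and -0.66. Pts, another cofactor enzyme, had 602 and 144 in clones 42 and 48 and 147 and 412 in puroB and puroD, so that its pairs moved in opposite directions (log2 2.03 and -1.51). Spr had a mean of -0.42 and Aldh2 of -0.25.

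Among 26 further factors of midbrain dopaminergic fate, 20 had a probe set and 7 were tested, with 0 passing in each direction, 2 higher and 3 lower in both pairs and a median of -0.17. The largest even difference was that of Nr2f1, a nuclear receptor of neural patterning, with 767 (clone 42) and 1308 (clone 48), against 430 (puroB) and 703 (puroD) (log2 0.83 and 0.89 in the pairs; limma adjusted p = 0.368). Both Nurr1-labelled clones were above both control clones, clone 42 by little over puroD. Shh, the floor plate signal, had 67.3 and 136 in clones 42 and 48 and 163 and 183 in puroB and puroD, with a mean log2 difference of -0.85 ± 0.44 (SE, n = 2 clones in each group; limma adjusted p = 0.761), which was -0.35 without clone 42 and -1.36 without clone 48. Pax5, which helps set up the midbrain and its border with the hindbrain, had a mean of 1.02 because puroD was low, at 29.4 and under the background limit, and of 0.10 without puroD. Shh was bright enough to be tested only on the control arrays, and Pax5 only on the Nurr1-labelled arrays. The places of Shh and Pax5 among the 7 tested factors partly follow from their differences. Msx1, a factor of early dopaminergic progenitors in mouse, had -0.19 in each pair. Lmx1b had 141 and 51.5 in clones 42 and 48 and 108 and 98.1 in puroB and puroD. Foxa1 and Foxa2 each exceeded the background limit on 1 array, Foxa1 in puroB and Foxa2 in clone 42.

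Of the receptor chains of GDNF, Gfra1 was lower in both Nurr1-labelled clones and Ret was at background in all clones. Gfra1, the GPI-anchored co-receptor that binds GDNF, had signals of 127 (clone 42) and 37.9 (clone 48), against 254 (puroB) and 153 (puroD) (93872_at). Both Nurr1-labelled clones lay below both control clones, as did 17.9% of all tested probe sets, and clone 48 was the lowest, within its background. Clone 42 was 2.0-fold lower than puroB, and clone 48 at least 3.80-fold lower in signal than puroD, taken at the floor of 40.3. The fit, with clone 48 at the floor, gave a mean log2 difference of -1.46 ± 0.46 (SE, n = 2 clones in each group; limma adjusted p = 0.298, unadjusted p = 0.00665), which is no bound. Gfra1 was tested because both control arrays exceeded 145, the group in which it was high, so its place among the tested probe sets partly follows from its difference. Clones 42 and 48 differed from each other by 1.66, more than the groups did, and without clone 48 the mean difference was -0.63.

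Ret, the kinase that GFRa1 presents GDNF to, had signals of 7.69 (clone 42), 3.90 (clone 48), 5.0 (puroB) and 6.99 (puroD) (101828_at). All of these lie under the controls not spiked in, near their medians of 5.99 to 8.99, so Ret transcript was not detectable in any of the 4 clones and no fold is given. The other co-receptors were measured beside Gfra1. Gfra2, which prefers neurturin, had 415 (clone 42) and 241 (clone 48), against 328 (puroB) and 161 (puroD), or log2 0.34 and 0.58 in the pairs (limma adjusted p = 0.873), so it was higher in both pairs where Gfra1 was lower. Its groups overlapped, however, with clone 48 below puroB, and the control clones differed by 1.02, more than the mean difference of 0.46. Gfra3, which binds artemin, had 137 (clone 42) and 59.7 (clone 48), against 144 (puroB) and 120 (puroD), and was not tested.

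Gdnf, the ligand, was highest in clone 42, with signals of 1844 (clone 42) and 679 (clone 48), against 791 (puroB) and 494 (puroD) (92738_at). The groups overlapped, because clone 48 lay below puroB, although each Nurr1-labelled clone exceeded its own match. The fold was 2.33 in the pair of clone 42 and 1.37 in that of clone 48. The mean log2 difference was 0.84 ± 0.31 (SE, n = 2 clones in each group; limma adjusted p = 0.466, unadjusted p = 0.0171), smaller than the 1.44 between clones 42 and 48, and it was 0.12 without clone 42. The control clones differed by 0.68. At a dimmer probe set, 161598_at, the signals were 150 (clone 42) and 87.6 (clone 48), against 33.4 (puroB) and 93.3 (puroD). There clone 42 was at least 3.02-fold higher in signal than puroB, which lay within its background (limit 49.8), while clone 48 and puroD were within 1.07-fold of each other. Both probe sets thus had clone 42 highest, and they disagreed on clone 48 against puroD.

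The other ligands of the GDNF family had clone 42 as the high clone in the cases of Artn and Pspn but not of Nrtn. Artn, artemin, had 603 (clone 42) and 229 (clone 48), against 295 (puroB) and 221 (puroD). Pspn, persephin, had 491 (clone 42) and 238 (clone 48), against 183 (puroB) and 233 (puroD). Nrtn, neurturin, had 224 (clone 42) and 283 (clone 48), against 277 (puroB) and 250 (puroD), with groups that overlapped. The mean log2 differences were 0.54 for Artn, 0.73 for Pspn and -0.07 for Nrtn (limma adjusted p = 0.841, 0.732 and 0.995), and for both Artn and Pspn the pair of clone 48 differed by under 0.06, with a difference of -0.15 for Artn without clone 42.

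Of the list of 27 GDNF family and RET signalling genes, 20 had a probe set and 14 were tested, with 0 passing in each direction, 5 higher and 4 lower in both pairs and a median of 0.06. Dusp6, a phosphatase whose transcription follows ERK activity, had the largest difference among the tested genes of the list, with 770 (clone 42) and 637 (clone 48), against 1266 (puroB) and 1921 (puroD) (93285_at). Both Nurr1-labelled clones were below both controls, with a mean log2 difference of -1.16 ± 0.32 (SE, n = 2 clones in each group; limma adjusted p = 0.206). Dusp6 passed with the filter on all 4 arrays (limma adjusted p = 0.0488) and under none of the other alternatives. Its adjusted p in limma was 0.268 with scaling to the median and 0.614 with quantile normalization. It was 0.753 without the matched pair in the fit and 0.903 without a filter. Shc1, an adaptor of receptor kinases, had 0.10 and 0.96 in the pairs. Spry4, of ERK feedback, and Etv4 of the same list did not differ as far, with means of -0.21 and 0.19.

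Bdnf, the neurotrophin, had signals of 628 (clone 42) and 189 (clone 48), against 204 (puroB) and 160 (puroD) (102727_at). Clone 42 stood apart, and the other 3 clones lay close together, with clone 48 below puroB, so the groups overlapped. The fold was 3.08 in the pair of clone 42 and 1.18 in that of clone 48. The mean log2 difference was 0.93 ± 0.37 (SE, n = 2 clones in each group; limma adjusted p = 0.519, unadjusted p = 0.023), and 0.07 without clone 42. Clones 42 and 48 differed by 1.73, the largest difference within a group among the 7 tested member probe sets. RefSeq lists 7 start windows for Bdnf, and this single probe set does not tell its transcripts apart.

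The receptors of the neurotrophins gave little signal. Ntrk2, which encodes TrkB, had 14.7 (clone 42) and 10.2 (clone 48), against 58.4 (puroB) and 6.39 (puroD), above the background limit in puroB alone, and Ntrk3 was under it on all 4 arrays. Of the neurotrophin list of 25 genes, 13 had a probe set and 5 were tested, with 0 passing in each direction, 1 higher and 1 lower in both pairs and a median of 0.01. The proprotein convertases that cut neurotrophin precursors differed in opposite directions. Furin had 1260 (clone 42) and 1322 (clone 48), against 1037 (puroB) and 870 (puroD), a mean log2 difference of 0.44 (limma adjusted p = 0.875). Pcsk6, a related convertase, had 219 (clone 42) and 142 (clone 48), against 424 (puroB) and 274 (puroD), with groups that did not overlap and differences of -0.95 and -0.94 in the pairs (limma adjusted p = 0.368). Manf, a survival factor of the endoplasmic reticulum, differed in opposite directions in the pairs (0.89 and -0.50), and Plat and Maged1 had means within 0.02 of 0.

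Dlk1, a Notch-related membrane protein that in mouse midbrain depends on Nurr1, had signals of 336 (clone 42) and 244 (clone 48), against 288 (puroB) and 186 (puroD) (101975_at). Each Nurr1-labelled clone was above its match, by 1.17-fold and 1.31-fold, but clone 48 lay below puroB and the groups overlapped. The mean log2 difference was 0.31 ± 0.31 (SE, n = 2 clones in each group; limma adjusted p = 0.948), with a 95% interval of -0.37 to 0.98, and the control clones differed by 0.63. Sncg, gamma-synuclein, was measured by a bright and a dim probe set. At 161859_f_at, whose suffix marks probes that can match a family of similar sequences, the signals were 272 (clone 42) and 228 (clone 48), against 335 (puroB) and 207 (puroD). Both Nurr1-labelled clones lay between the controls, with a mean log2 difference of -0.08 ± 0.32 (SE, n = 2 clones in each group; limma adjusted p = 0.995) and a 95% interval of -0.77 to 0.60. At 104280_at the signals of 41.4 (clone 42), 11.2 (clone 48), 29.7 (puroB) and 28.8 (puroD) all lay within the background. Sncb, beta-synuclein, had 219 (clone 42) and 165 (clone 48), against 327 (puroB) and 259 (puroD), or -0.58 and -0.65 in the pairs (limma adjusted p = 0.768), and was below both controls in both Nurr1-labelled clones. Of the 21 genes of its list 12 had a probe set and 2 were tested, Sncb and Park7, the other with a mean of -0.08.

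**Figure D3:**
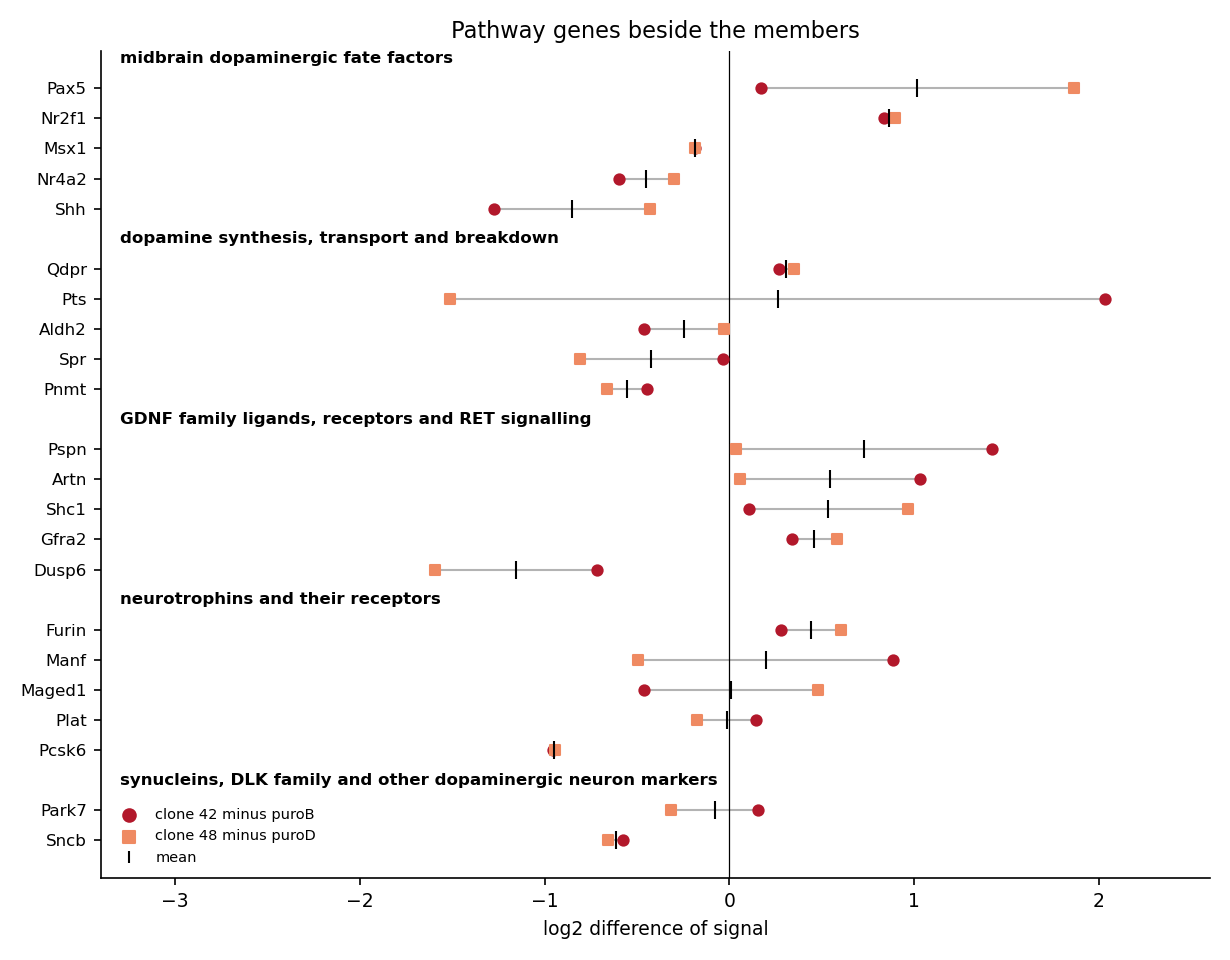
Log2 differences of up to 5 tested genes of each pathway list in the matched pairs (red circle, clone 42 minus puroB; orange square, clone 48 minus puroD) with their mean (black tick). Pspn and Artn are high in the pair of clone 42 only (1.42 and 1.03), Dusp6 is low in both pairs (-0.72 and -1.59), and the pairs of Pts lie on opposite sides of 0.

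Set side by side, the 7 tested genes had a median log2 difference of 0.56 in the pair of clone 42 and 0.24 in that of clone 48, against -0.06 and -0.03 over all tested probe sets. En1, Pitx3, Gdnf, Bdnf and Dlk1 were higher in both pairs and Gfra1 lower, against the shares of 21.7% and 29.7% over all tested probe sets. The members had been chosen with earlier results of these data known, so their comparison with all tested probe sets is a description and no test. These 7 are the members bright enough to be tested, and they differed among the controls too: their median for puroB minus puroD was 0.63, against 0.07 over all tested probe sets. Of the 7, 6 were higher in puroB than in puroD and 6 higher in clone 42 than in clone 48. The signal was highest in clone 42 for En1, Gdnf, Bdnf and Dlk1, 4 of 7, where 26.6% of all tested probe sets had their highest signal in that clone. The plot of the 2 pairs shows En1 as the member farthest from 0 in both at once on the higher side.

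**Figure D4:**
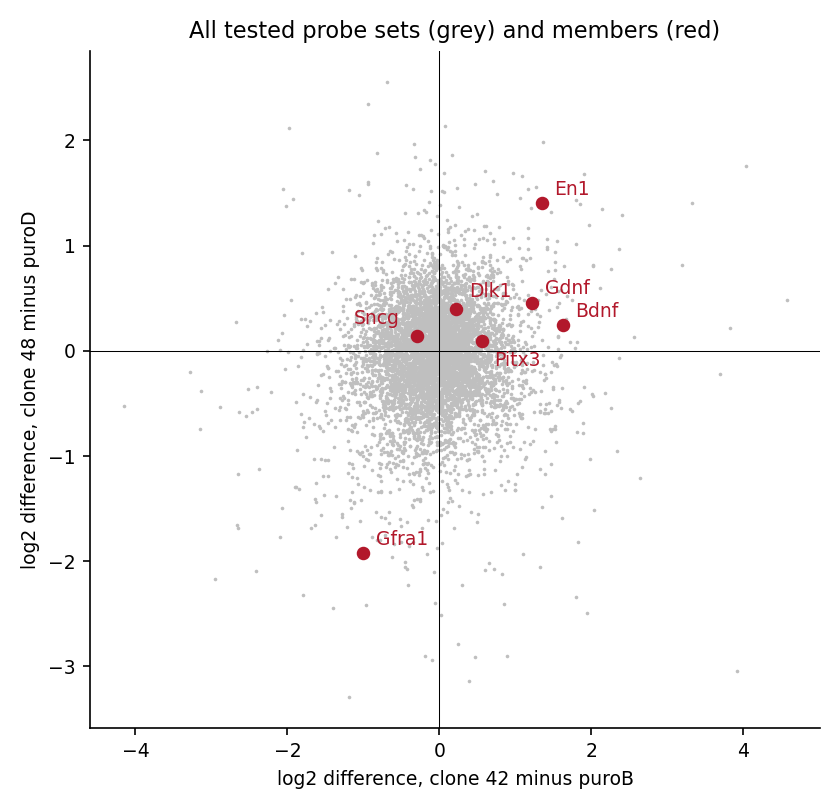
Log2 difference of clone 42 minus puroB (x axis) against clone 48 minus puroD (y axis) for the 6419 tested probe sets (grey) and the 7 tested members (red). En1 lies at 1.35 and 1.40 and Gfra1 at -1.0 and -1.93, whereas Bdnf and Gdnf are displaced mainly along the axis of clone 42.

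The tested genes whose signals over the 4 clones were nearest to each member are given as a description, by the Euclidean distance between log2 signals centred on their mean over the 4 arrays. Nearest to En1 were Stc2, a secreted glycoprotein (distance 0.25), Atp6v0e2, a subunit of the vacuolar proton pump (0.27), and Pltp, a phospholipid transfer protein (0.28). Stc2 had signals of 713 (clone 42) and 628 (clone 48), against 319 (puroB) and 280 (puroD), the same order of clones as En1. Nearest to Gfra1 were Pik3c2a, a lipid kinase, Pxmp2, a peroxisomal membrane protein, and the angiogenic factor Vegfa, at 0.18 to 0.33. Vegfa had 143 (clone 42) and 52.3 (clone 48), against 244 (puroB) and 157 (puroD). S100a13 was among the nearest to both Gdnf (0.23) and Bdnf (0.29), with 3741 (clone 42) and 1432 (clone 48), against 1357 (puroB) and 942 (puroD). The others nearest to Gdnf were Ctsb and Ifnar1, and to Bdnf Idi1, an enzyme of isoprenoid synthesis, and AI413582. Nearest to Pitx3 were Celsr2, Nop16 and Mrpl18, to Dlk1 Atp6v1b2, Mkrn1 and Aktip, and to Sncg Ttc3, Shkbp1 and Pdlim1, at distances of 0.04 to 0.09.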

How the data were processed

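RNA from the 4 clones had been made into biotinylated target for Affymetrix mouse arrays, with a single array for each clone. The deposited values are linear intensity values over 12469 rows, with a signal for each probe set and array. The submitters' processing notes name MAS5; the sources used here give no version, scaling target or detection calls. Trimmed means of the deposited arrays (2% from each end) lay between 500.4 and 500.5.

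Here each array was set to a trimmed mean of 500, low signals were raised to a floor at the 30th percentile (40.3), and log2 was taken. Probe sets above the median of all values (145.05) on at least 2 of 4 arrays were tested. With 66 array controls left out, 6419 of 12403 remained. Of these 12403, 10814 had 1 symbol in the platform annotation, 396 several and 1193 none. Entrez identifiers were looked up in RefSeq (GRCm38.p6, for names only), and 0 symbols were updated. limma 3.58.1 in R 4.3.3 compared the groups (lmFit, the matched pair as a block; eBayes, trend on intensity), and p-values were adjusted by Benjamini-Hochberg over all tested probe sets. The fit has 1 residual degree of freedom and a prior of 13.1, so its errors rest mainly on the spread pooled over probe sets. On a single simulated data set, drawn from the fit's own pooled spread without pair differences, the fit recovered the planted differences. More of its calls there were false than the threshold allows, so its p-values may be too small. The pairing comes from the sample descriptions, since the series' design text repeats the number of clone 42 beside puroD. As a check on it, the departures from the group means of arrays in a pair were compared across probe sets, which are not independent replicates, and gave r = 0.19. The number of arrays limits the precision.

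All member probe sets are named, with up to 5 tested genes of the largest difference from each of 5 pathway lists (brightest tested probe set), Nr4a2, and the 3 nearest patterns of each tested member; other genes of these lists and of 7 marker lists are given by their signals. Members and lists were chosen with earlier results of these data known. Motifs other than the NBRE were added after the signals had been seen. Alternatives in scaling, floor, filter, trend, block and clones are given in the closing section.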

Additional observations from a re-analysis of the deposited data

Results flagged for a closer look

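In 2 member probe sets the matched pairs lay on opposite sides of 0; the difference between the pairs was not tested, since each clone has 1 array. At Gdnf 161598_at the log2 difference was 1.90 for clone 42 minus puroB, with puroB at the floor, and -0.09 for clone 48 minus puroD, a gap of 1.99; the brighter Gdnf probe set was positive in both pairs. At Sncg 161859_f_at the differences were -0.30 and 0.14, a gap of -0.44, smaller than the 0.70 between the control clones.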

How the results depend on the processing

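Of the 7 tested member probe sets, 0 passed in limma with the settings reported, and 1, En1, passed with scaling to the median (adjusted p = 0.0113) and with a filter on all 4 arrays (0.00993); 0 passed under the other alternatives tried. Over all probe sets the 7 calls (4 higher, 3 lower; 474 at an unadjusted p under 0.05) became 51 with scaling to the median (36 higher, 15 lower), 49 with the filter on all 4 arrays (27 higher, 22 lower), and 0 with no replicate block (287 unadjusted), quantile normalization (375), no floor (473) or no filter (560). Without a trend there were 7 (1 higher, 6 lower), and with a floor at 100 there were 8. Leaving out clones in turn, with the pair out of the fit and a lone clone assumed to vary like the other group, gave 0 (without puroB, 203 unadjusted) to 51 calls (without clone 48), with 17 without clone 42 and 2 without puroD. The cause of these shifts was not tested. Scaling to the median moved the median of all probe sets to 0.13, against -0.04 in the main setting; relative to that median En1 was 1.42 in both.

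The En1 difference lay between 1.21 and 1.55 in all 12 alternatives, and between 1.21 and 1.54 without single clones, where its adjusted p ran from 0.0619 to 0.897. Without single clones the ranges were 0.07 to 1.80 for Bdnf, 0.12 to 1.56 for Gdnf and -2.29 to -0.63 for Gfra1, which kept their direction. Sncg turned to 0.043 with quantile normalization and 0.088 with scaling to the median, where Maged1 gave -0.037 in the first of these, and Plat 0.15 and Park7 0.089 in the other. Without single clones these values crossed 0: Sncg (-0.43 to 0.27), Pitx3 (-0.034 to 0.69), Dlk1 (-0.0081 to 0.62), Nr4a2 at 92248_at (-0.92 to 0.016), Pts (-0.77 to 1.29), Artn (-0.15 to 1.24), Gfra2 (-0.052 to 0.97), Aldh2 (-0.57 to 0.076), Manf (-0.35 to 0.74), Plat (-0.29 to 0.25), Maged1 (-0.27 to 0.28) and Park7 (-0.25 to 0.0897). Ret, Th outside puroB and the dim Sncg probe set lie within the background, which limits what their signals can show.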

Other observations

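Some genes of the lists that were not tested, and that were singled out after their values had been seen, differed in both pairs. Grb10, an imprinted adaptor that restrains growth factor receptors, had signals of 92.6 (clone 42) and 56.0 (clone 48), against 284 (puroB) and 125 (puroD). Both Nurr1-labelled clones were below both controls, and all 4 signals exceeded the controls not spiked in. Map2, a dendritic microtubule protein described beside En1, lay within the background in both Nurr1-labelled clones (45.8 in clone 42 and 4.2 in clone 48) and at 198 in puroB and 120 in puroD, so that its signal was lower by at least 3.16-fold in the pair of clone 42 and 2.98-fold in that of clone 48. That is the opposite direction to the neuronal genes Nefl, Nefm and Tubb3. Dll1, a Notch ligand, had 21.4 in clone 42 and 17.1 in clone 48, both within background, against 63.9 in puroB and 76.1 in puroD. Lifr, a receptor of the cytokine LIF, had 76.8 (clone 42) and 77.7 (clone 48), against 126 (puroB) and 119 (puroD).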
